A study of Mus musculus with 3 samples.

Results

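Aquaporins are membrane channels that let water, and in some members glycerol or other small solutes, cross the cell membrane along osmotic gradients. Epithelia that secrete fluid, such as pancreatic ducts and salivary glands, use them to let water follow the ions that the cells pump. The 10 mouse genes described here are Aqp1, Aqp2, Aqp3, Aqp4, Aqp5, Aqp6, Aqp7, Aqp8, Aqp9 and Aqp11, out of 21887 protein-coding genes annotated by RefSeq on GRCm38.p6. Their regions are all peaks of histone H3 lysine 27 acetylation (H3K27ac, which marks promoters and enhancers in use) within 50 kb of the gene bodies. The rule found 21 of the 38793 peaks in the post-caerulein list and 26 of the 37765 peaks in the untreated list. By the distance rule, the last peaks kept lay 49.2 kb from Aqp11 (post-caerulein, 3198 bp wide, score 947.82) and 49.4 kb from Aqp4 (untreated, 2497 bp, score 381.03). The nearest peaks left out lay 50.1 kb from Aqp4 (post-caerulein, 1025 bp, score 56.45) and 60.6 kb from Aqp7 (untreated, 3991 bp, score 3100).

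The study compared pancreatic epithelial spheroids, three-dimensional cultures grown from wild-type C57BL/6J mice that had received caerulein, with the same cultures from untreated mice. Caerulein is a cholecystokinin analogue that causes acute pancreatitis, and the title of the series speaks of resolved inflammation. Both groups were grown in one medium, which held among other additions EGF, hydrocortisone, cholera toxin and nicotinamide. The labels used here give neither the time since caerulein, nor the age or number of the mice, nor whether animals were pooled. Each group has 1 H3K27ac library and 1 peak list, so no value below has a replicate error, no p-value is given, and sequencing depth is unknown. The deposited score of a peak is the authors' own value and describes the peak within its list only.

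Among the sets of cell type markers, only the duct set had an end of every gene near a peak in both lists. Marked ends of chosen genes do not settle cell identity, which was not tested. An end of 8 of 8 duct marker genes lay within 1 kb of a peak in both lists, whereas 7 of 8 acinar, 8 of 8 endocrine and 8 of 8 mesenchymal markers had no marked end in either. Of the immune markers 2 were marked in both lists, 1 (Ptprc) after caerulein alone and 5 in neither, and of the endothelial markers 1 (Vwf), 1 (Erg) and 6. Over all genes, 52.9% had a marked end in both lists and 43.9% in neither. The length covered by peaks within 50 kb of the gene differed at least 2-fold, with 1 kb added to each value, for some markers. Over 17183 genes with a peak in that window, 3.06% were past this limit on the higher and 2.97% on the lower side. Of the 8 mesenchymal markers 2 were higher after caerulein, Pdgfrb with 8.98 kb in post-caerulein against 2.74 kb in untreated spheroids and Tcf21 with 6.52 kb after caerulein against 1.46 kb untreated, and 0 were lower. The mesenchymal windows held 4 post-caerulein-only and 0 untreated-only peaks. In the same order, the duct windows held 5 and 13, the acinar windows 0 and 4 and the endocrine windows 0 and 1. The immune windows held 2 and 6, and the endothelial windows 4 and 6. Of all peaks, 17.5% in the post-caerulein list and 14.3% in the untreated list were list-only. The immune marker Spi1 was lower, with 6.25 kb after caerulein against 15.2 kb in untreated spheroids, as were the endocrine marker Chga (0 kb after caerulein against 2.01 kb untreated) and the duct marker Cftr. No acinar marker passed that limit. The part of other cell types in the results on aquaporins was not tested.

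The water channel genes differed between the lists in both directions. With neighbouring genes that share peaks counted as 1 locus, there were 7 loci, of which 3 had more covered length after caerulein and 4 in untreated spheroids. Among the 3 was Aqp8, which hardly differed, with 2.737 kb after caerulein against 2.705 kb untreated at a shared peak. Past the 2-fold limit, 2 loci were higher after caerulein and 2 lower. H3K27ac around the neighbouring genes Aqp2 and Aqp5 was listed in untreated spheroids alone, and the Aqp3 gene was covered in untreated spheroids alone. At Aqp4, 3 of 4 untreated peaks had a narrower peak at the same place after caerulein, and 1 was listed in untreated spheroids alone. Aqp1 and Aqp9 had peaks after caerulein alone, and the peaks of Aqp8 and most of those of Aqp11 were shared. In a culture of many cells, fewer cells with the mark and less of it per cell cannot be told apart.

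Promoter sequences show what lay under these marks. They are the 250 bases before the RefSeq start site (GRCm38.p6), written 5′ to 3′, for the members whose start was covered in untreated spheroids alone (Aqp5 and Aqp3) or in both lists (Aqp11), and for 2 members with list-only peaks but an uncovered start (Aqp2 and Aqp1). Capitals mark matches to 5 motifs searched on both strands: the TATA-box string TATAAA, the E-box string CACGTG, the AP-1 string TGANTCA, the cyclic AMP response element TGACGTCA and the GC-box string GGGCGG. The Aqp5 window is chr15:99590778-99591027 (plus strand), that of Aqp3 chr4:41098184-41098433 (minus strand), and that of Aqp11 chr7:97738248-97738497 (minus strand). The Aqp2 window is chr15:99578806-99579055 and that of Aqp1 chr6:55336049-55336298 (both plus strand).
Aqp5: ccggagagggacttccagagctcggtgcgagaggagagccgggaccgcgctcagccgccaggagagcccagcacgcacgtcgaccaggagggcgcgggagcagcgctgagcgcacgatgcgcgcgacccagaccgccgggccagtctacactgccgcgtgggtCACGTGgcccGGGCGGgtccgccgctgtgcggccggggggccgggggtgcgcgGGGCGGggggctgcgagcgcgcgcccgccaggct
Aqp3: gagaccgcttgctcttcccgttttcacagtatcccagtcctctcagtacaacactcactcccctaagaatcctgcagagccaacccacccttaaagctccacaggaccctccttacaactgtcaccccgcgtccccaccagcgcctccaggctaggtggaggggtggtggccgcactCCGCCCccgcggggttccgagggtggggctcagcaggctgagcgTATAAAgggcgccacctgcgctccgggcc
Aqp11: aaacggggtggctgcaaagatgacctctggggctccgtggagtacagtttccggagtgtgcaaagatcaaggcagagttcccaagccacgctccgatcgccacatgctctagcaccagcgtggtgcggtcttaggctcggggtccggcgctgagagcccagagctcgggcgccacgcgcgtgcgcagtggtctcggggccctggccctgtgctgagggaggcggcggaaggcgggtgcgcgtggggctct
Aqp2: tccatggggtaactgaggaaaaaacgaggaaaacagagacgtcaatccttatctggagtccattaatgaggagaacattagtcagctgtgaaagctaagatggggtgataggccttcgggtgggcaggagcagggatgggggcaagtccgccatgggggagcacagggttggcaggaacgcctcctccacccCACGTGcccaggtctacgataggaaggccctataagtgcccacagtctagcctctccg
Aqp1: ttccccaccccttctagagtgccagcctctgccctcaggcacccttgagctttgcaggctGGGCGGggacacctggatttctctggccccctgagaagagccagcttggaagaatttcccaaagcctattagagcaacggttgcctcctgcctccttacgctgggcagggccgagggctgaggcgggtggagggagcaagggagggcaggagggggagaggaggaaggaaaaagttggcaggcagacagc

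The Aqp5 promoter was rich in G and C (78.4%, with 38 CpG dinucleotides), against medians of 52.4% and 6 over 32851 promoter windows of the same length. It held 1 CACGTG, found in 6.02% of all windows, and 2 matches to GGGCGG, found in 32.7%. The Aqp3 promoter (64.0% G and C, 14 CpG) held a TATAAA that begins 29 bases before the start site, a motif found in 12.4% of windows, and 1 GGGCGG. The Aqp11 promoter (67.2%, 23 CpG) held none of the 5 motifs. Aqp2 (55.6%, 8 CpG) held 1 CACGTG, and Aqp1 (62.0%, 5 CpG) held 1 GGGCGG. No match overlapped a match to another motif. Among the 9 members with a promoter window, CACGTG had a match at Aqp2, Aqp5, Aqp6 and Aqp8. Of these, only the Aqp5 window was covered in either list. The string TGANTCA, found in 6.75% of windows, had a match at Aqp9 alone among the 9 members, and TGACGTCA, found in 1.55%, had none. A match is a string in the reference genome and was not tested as a binding site. All 250 bases of the Aqp5 and Aqp3 windows lay under a peak in untreated spheroids and none did after caerulein. Those of Aqp11 were covered in both lists, and those of Aqp2 and Aqp1 in neither.

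Aqp5 encodes the water channel of the apical membrane of secretory epithelia, known from salivary and lacrimal glands. The gene (chromosome 15, 99591028 to 99594829) was covered over 0% of its body after caerulein and over 100% in untreated spheroids. The untreated peak was 12707 bp wide (chromosome 15, 99583474 to 99596180) with a score of 3100, at percentile 88.4 of its list. Other untreated peaks had the same score, among them that over Ube2r2, so this percentile is the mean rank of tied peaks. No post-caerulein peak lay within 57.8 kb of the Aqp5 start site. The gap without any post-caerulein peak was 135.7 kb long and contained 3 protein-coding genes, all aquaporins. In that gap untreated spheroids had 4 peaks covering 18.7 kb. A gap around a list-only peak had a median length of 51.9 kb over all untreated-only peaks, and the 135.7 kb gap was at percentile 74.0 of these.

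Aqp2, the vasopressin-regulated channel of the kidney collecting duct, lies 6483 bp before Aqp5 on the same strand (chromosome 15, 99579056 to 99584545). The Aqp5 peak reached only its downstream end, covering 19.5% of the Aqp2 body in untreated spheroids and 0% after caerulein. Its start site was 65.9 kb from the nearest post-caerulein peak and 4.42 kb from the nearest untreated one. The marked end of Aqp2 is therefore a mark over the start of its neighbour and not over its own promoter. A pair of narrow untreated-only peaks lay upstream of Aqp2, 10292 and 12521 bp from the gene (2112 and 2034 bp wide, percentiles 27.8 and 7.62). A further one, 1867 bp wide, lay nearer to Faim2, an inhibitor of Fas-mediated cell death.

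Aqp6, which encodes an intracellular channel that also passes anions, is the next gene (chromosome 15, 99598468 to 99605478). Its body had no peak in either list, and the untreated peak over Aqp5 ended 2288 bp before it. Covered length in its window was 3.61 kb in post-caerulein against 21.0 kb in untreated spheroids. The post-caerulein part was 1 shared peak at the far edge, over an end of Racgap1, a gene of cytokinesis. That peak was 3605 bp wide after caerulein and 4109 bp in untreated spheroids. When each base was counted only for the gene nearest to it, Aqp6 had no covered base in either list.

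Aqp3 encodes an aquaglyceroporin, a channel for water and glycerol, of the basolateral membrane of many epithelia. In untreated spheroids a peak of 5549 bp covered its start and most of the gene, and a second of 3900 bp reached over its downstream end (chromosome 4, 41088892 to 41098701 for both). Together they covered 93.4% of the gene body, which has no peak after caerulein. The untreated scores were 523.97 and 343.26, at percentiles 45.5 and 38.2. The nearest post-caerulein peak was 25.0 kb from the start site, over the ribosome biogenesis gene Nol6. Of the 10 members, 2 (Aqp5 and Aqp3) had at least 50% of the body covered in untreated spheroids and none after caerulein, and 0 the reverse. Over 13321 genes with any body coverage, 0.128% showed that untreated pattern and 0.18% the reverse. Among the members, only Aqp1, Aqp2, Aqp3, Aqp4, Aqp5 and Aqp11 had any body coverage. Body coverage was chosen after the data were seen, so the contrast with these shares is not a test.

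Farther from Aqp3 most peaks were shared. Its 2 shared peaks upstream lay over Nol6, with 2222 bp after caerulein and 2668 bp in untreated spheroids, and over the ubiquitin-conjugating enzyme gene Ube2r2, with 4203 bp after caerulein and 4074 bp in untreated spheroids. Covered length in the whole window was 8.73 kb in post-caerulein against 19.0 kb in untreated spheroids (log2 ratio -1.04, with 1 kb added to each value). No post-caerulein peak lay within 10 kb of the gene. Leaving out peaks under the median score of each list removed both Aqp3 peaks, and the log2 ratio was then -0.06.

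Aqp7, an aquaglyceroporin known for glycerol release from fat cells, lies 44487 bp from Aqp3 (chromosome 4, 41033074 to 41048237). No peak touched its body in either list. The nearest peak was a small shared one upstream, 904 bp wide after caerulein and 1165 bp in untreated spheroids. Covered length was 12.7 kb in post-caerulein against 20.7 kb in untreated spheroids (log2 ratio -0.66), and the 2 untreated-only peaks counted there were those of Aqp3. A shared peak at the neighbouring gene Nfx1 went the other way, with 2435 bp after caerulein (score 340.29) and 1303 bp in untreated spheroids (score 71.19). Its log2 width ratio of 0.90 was the highest of the 17 matched pairs in aquaporin windows. With each base counted for its nearest gene alone, the ratio turned to 0.61, and without the peaks under the median score of each list it was -1.02. A post-caerulein-only peak of 1397 bp (score 65.08, percentile 6.55) lay 8049 bp upstream of Aqp7.

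**Figure D1:**
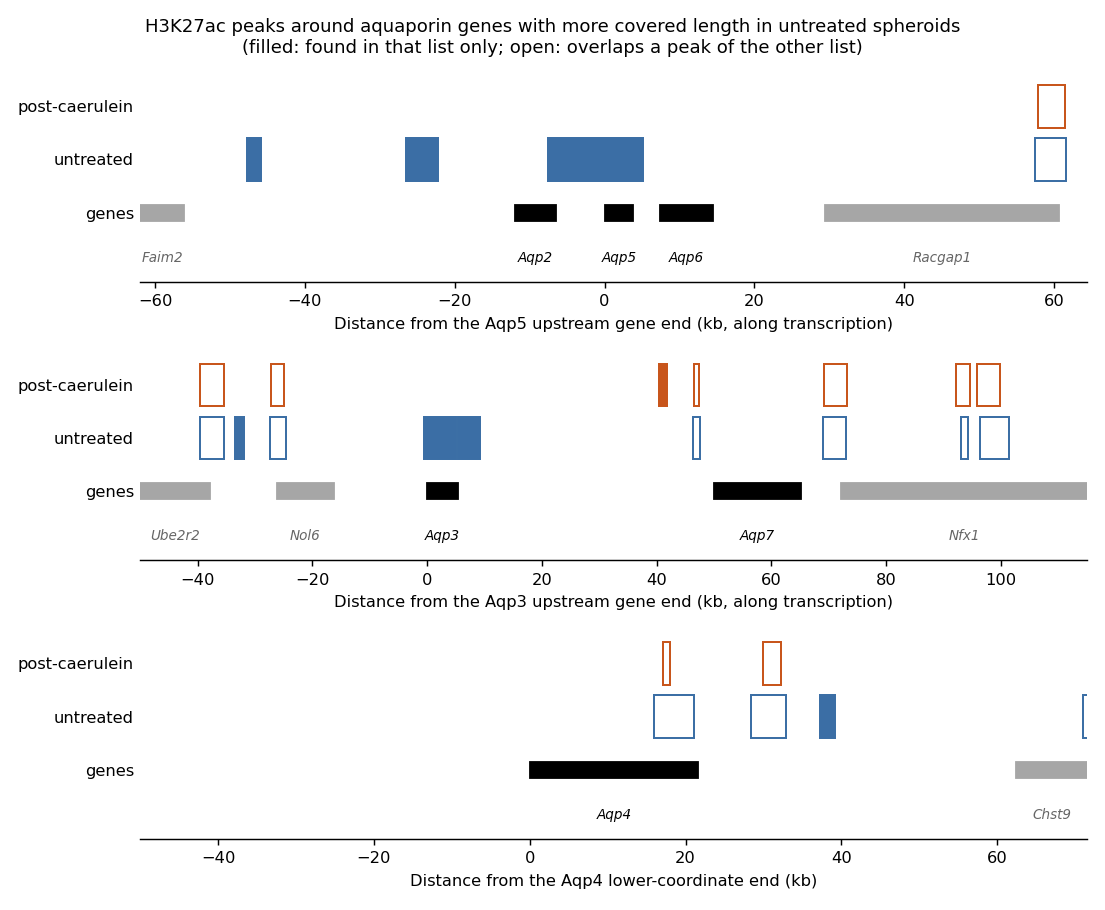
H3K27ac peaks in the windows of Aqp2, Aqp5 and Aqp6 (top), Aqp3 and Aqp7 (middle) and Aqp4 (bottom), with the post-caerulein list above the untreated list and distance in kb on the horizontal axis. Filled boxes are peaks of one list only, open boxes overlap a peak of the other list, black bars are aquaporin genes and grey bars other genes. The filled untreated boxes over Aqp5 and Aqp3 have no post-caerulein peak above them, and at Aqp4 the post-caerulein boxes are narrower than the untreated ones they overlap.

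Aqp4 encodes the main water channel of astrocytes, found also on basolateral membranes of some epithelia (chromosome 18, 15389394 to 15410982). Of the 4 untreated peaks in its window, 3 had a post-caerulein peak at the same place, narrower in each case, and 1 had none. The peak within the gene was 952 bp wide after caerulein and 5182 bp in untreated spheroids (log2 width ratio -2.44). The next was 2297 bp after caerulein and 4580 bp in untreated spheroids (-0.996). The peak at the window's edge was 1025 bp after caerulein and 2497 bp in untreated spheroids (-1.28), and the post-caerulein one lay just outside the window.

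In all 3 pairs at Aqp4 the post-caerulein peak lay inside the untreated peak, which was so for 27.1% of 27197 matched pairs genome-wide. A wider peak cannot lie inside a narrower one, and 55.4% of all pairs were wider after caerulein. The 27.1% is therefore not a like baseline for pairs that are all narrower after caerulein. The scores of the post-caerulein peaks were at percentiles 5.03, 17.5 and 2.93 of their list, and those of the untreated peaks at 71.2, 72.9 and 40.1 of theirs. An end of Aqp4 lay within 1 kb of a peak in untreated spheroids alone. Covered length was 3.25 kb in post-caerulein against 12.3 kb in untreated spheroids (log2 ratio -1.65), and it included 1 untreated-only peak of 2001 bp.

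Aqp1 encodes the constitutively open water channel of red blood cells, capillary endothelium and the pancreatic ducts. It had 3 peaks after caerulein and none in untreated spheroids. The peak within the gene was 2871 bp wide (chromosome 6, 55340555 to 55343425; score 351.25, percentile 42.7) and covered 23.4% of the Aqp1 body, 0% of which was covered in untreated spheroids. It began 4256 bp after the start site, so the Aqp1 promoter itself was not covered. A peak of 2804 bp lay 10587 bp upstream (score 673.61, percentile 54.6), nearer to the deubiquitinase gene Mindy4. A weak one of 1361 bp lay 1920 bp downstream (score 58.35, percentile 3.81). The untreated list had no peak over 413.3 kb around Aqp1, against a median gap of 43.6 kb around post-caerulein-only peaks (percentile 88.8 of these gaps). Covered length was 7.04 kb in post-caerulein against 0 kb in untreated spheroids.

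Because Aqp1 is also an endothelial gene, the endothelial markers are given beside it. Their 8 windows held 69.3 kb in all after caerulein against 62.6 kb untreated. Cdh5 had 0 kb in the post-caerulein list and 1.91 kb in the untreated list. Tek had 0 kb in the post-caerulein list and 4.13 kb in the untreated list, and Emcn had 0 kb in both. Covered length at Erg was 16.9 kb in the post-caerulein list and 1.502 kb in the untreated list, and at Kdr it was 1.08 kb in the post-caerulein list and 0 kb in the untreated list. At Pecam1 it was 16.5 kb in the post-caerulein list and 20.9 kb in the untreated list. At Vwf it was 29.6 kb after caerulein and 28.0 kb untreated, and at Cldn5 5.20 kb after caerulein and 6.26 kb untreated. Of the 8 markers 2 were past the 2-fold limit in each direction. Over all genes with a peak in the window, 3.06% were past it on the higher and 2.97% on the lower side.

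Aqp9, an aquaglyceroporin of liver cells, had 1 peak in its window after caerulein and none in untreated spheroids. The peak was 3616 bp wide (score 371, percentile 43.7) and lay 32.3 kb downstream of the gene (chromosome 9, 71110659 to 71167849). No post-caerulein peak lay nearer than 84.2 kb to an annotated start site. The untreated list had no peak over 538.0 kb there.

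Aqp8, a channel of water and ammonia known in pancreatic acinar cells, had no peak on its body or at its ends in either list (chromosome 7, 123462294 to 123468003). Its window held 1 shared peak at the neighbouring gene Lcmt1, 2737 bp wide after caerulein and 2705 bp in untreated spheroids, 31.1 kb from the start site in both. The log2 ratio of covered length was 0.01.

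Aqp11, a distant family member of the endoplasmic reticulum, was the 1 aquaporin whose start site was covered in both lists (chromosome 7, 97726379 to 97738247). The peak over it was 2218 bp wide after caerulein and 2402 bp in untreated spheroids. Its 6 matched pairs were 1.47 to 3.20 kb wide after caerulein and 2.25 to 3.21 kb in untreated spheroids, and the untreated peak was the wider in 4 of them. Covered length was 11.8 kb in post-caerulein against 16.6 kb in untreated spheroids (log2 ratio -0.46). The 1 untreated-only peak in its window, 2715 bp wide, lay within Clns1a, a chaperone gene of spliceosome assembly.

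**Figure D2:**
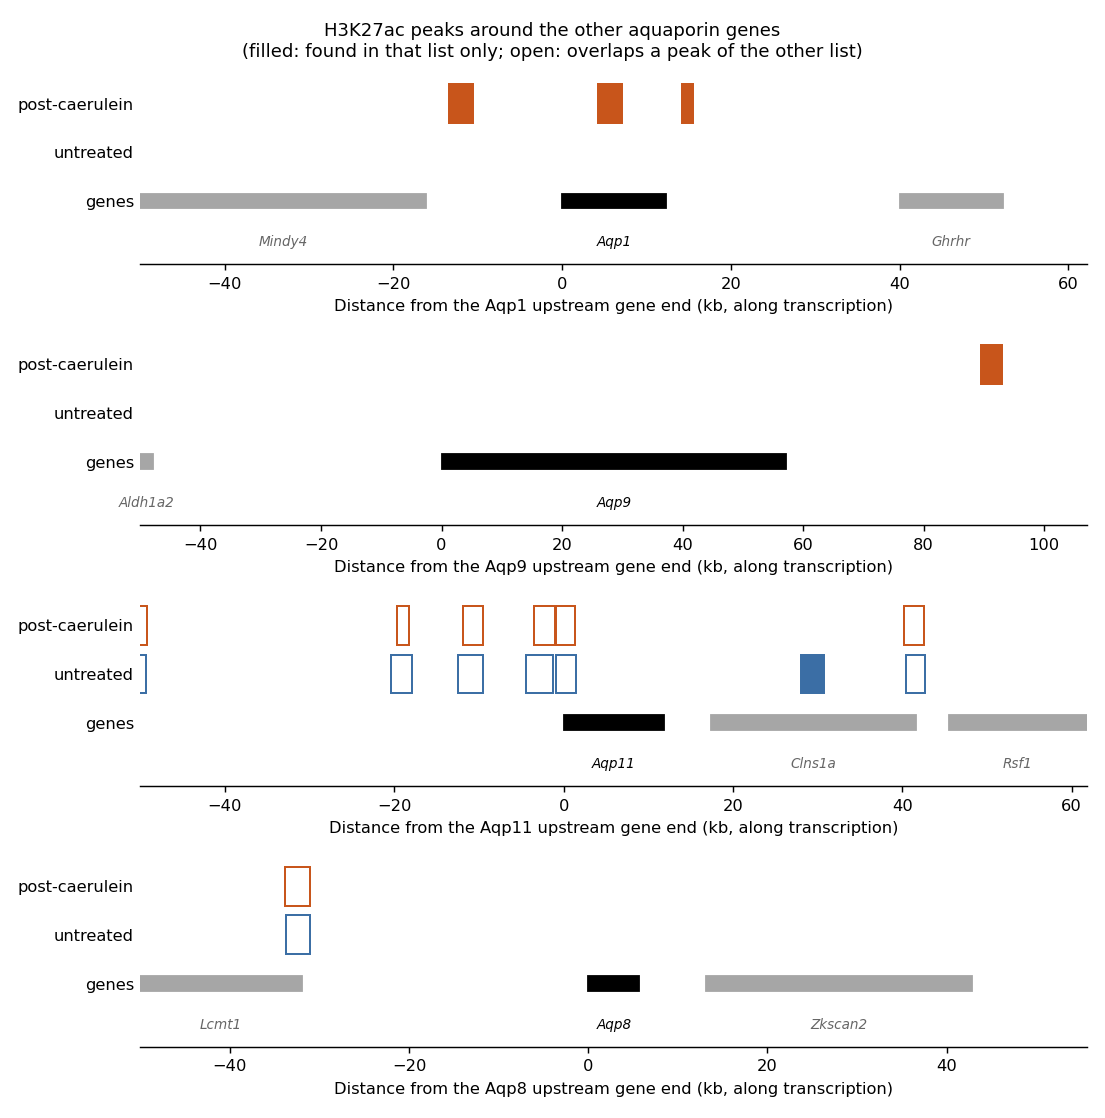
H3K27ac peaks in the windows of Aqp1, Aqp9, Aqp11 and Aqp8, with the post-caerulein list above the untreated list and distance in kb on the horizontal axis; filled boxes are peaks of one list only and open boxes overlap a peak of the other list. The Aqp1 and Aqp9 windows hold 3 and 1 post-caerulein peaks and no untreated peak, whereas the peaks over the Aqp11 start and at Lcmt1 beside Aqp8 are in both lists.

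Counted over the family, covered length was past a 2-fold limit (log2 of at least 1 in size, with 1 kb added to each value) for 7 of 10 members. It was higher after caerulein for 2 (Aqp1 and Aqp9) and lower for 5 (Aqp2, Aqp3, Aqp4, Aqp5 and Aqp6). Among 17183 genes with a peak in the window, 3.06% were past the limit on the higher and 2.97% on the lower side. The members' median log2 ratio was -0.85, against 0.01 over these genes. The 5 lower members are not 5 separate regions, because Aqp2, Aqp5 and Aqp6 share their peaks. With overlapping windows counted once there were 7 loci, of which 2 were higher and 2 lower (Aqp4 and the Aqp2, Aqp5 and Aqp6 cluster). In all 7 loci together, peaks covered 51.2 kb in post-caerulein against 84.0 kb in untreated spheroids.

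**Figure D3:**
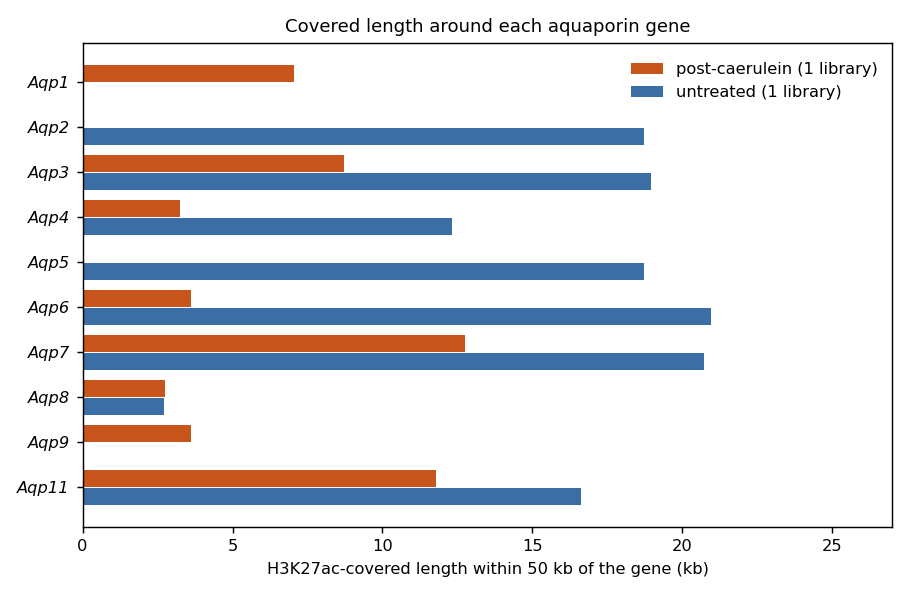
H3K27ac-covered length in kb within 50 kb of each aquaporin gene, with the post-caerulein bar above the untreated bar; each bar is 1 library without error. Aqp2 and Aqp5 have 18.7 kb in untreated spheroids and no post-caerulein bar, Aqp1 and Aqp9 have only a post-caerulein bar, and windows of neighbouring genes overlap.

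**Figure D4:**
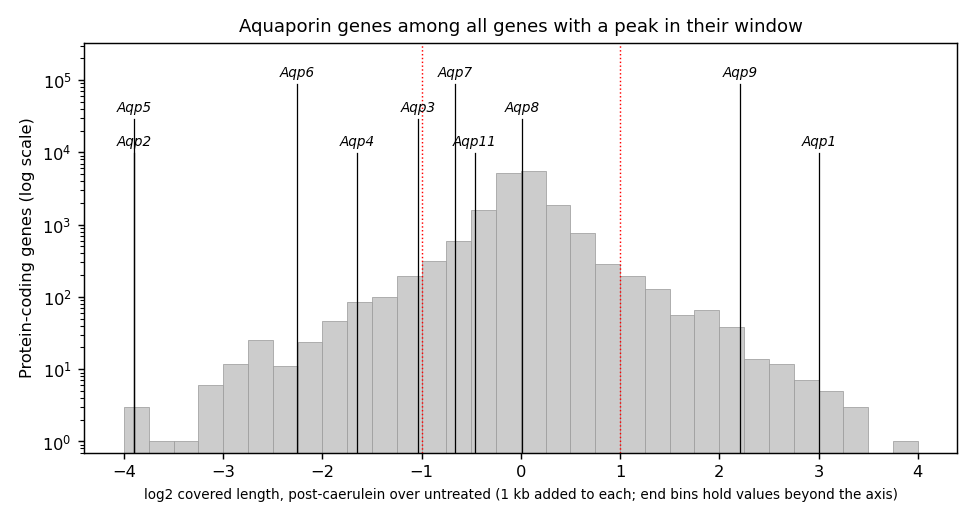
Distribution of the log2 ratio of covered length (post-caerulein over untreated, 1 kb added to each) over 17183 genes, on a log count axis, with the aquaporins as vertical lines and the 2-fold limit dotted. Aqp2, Aqp5, Aqp1 and Aqp9 have no peak in one list, so their place depends on the added 1 kb, and the bars at -4 and 4 gather all values beyond the axis.

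Gene ends were counted from the same peaks as covered length, so they are not separate support for it. An end was within 1 kb of a peak in the untreated list alone for 4 members (Aqp2, Aqp3, Aqp4 and Aqp5), in the post-caerulein list alone for 0, in both for 1 (Aqp11) and in neither for 5. Aqp1 and Aqp9, with more covered length after caerulein, were among those with no marked end in either list. The ends of Aqp2 and Aqp5 were marked by the same peak. The untreated peak near the end of Aqp4 overlapped a narrower post-caerulein peak that did not reach that end. Of 12279 genes with a marked end, 2.37% were marked in the untreated list alone and 3.3% in the post-caerulein list alone. Counted at the start side alone, for the 9 members whose start the promoter table gives, 2 (Aqp3 and Aqp5) were marked in untreated spheroids alone.

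Of the peaks in the windows, 5 of 21 were post-caerulein-only (23.8%, exact 95% interval 8.2 to 47.2), against 17.5% of all post-caerulein peaks. Untreated-only peaks were 9 of 26 (34.6%, 17.2 to 55.7), against 14.3% of all untreated peaks. The intervals cover counting error only and take peaks as independent, although 4 of the 9 lie in 1 gap. Only post-caerulein-only peaks were found in the windows of 2 members (20% against 25.6% of all genes with a peak, a share near the background), and only untreated-only peaks in those of 5 (against 23.8%). These 5 were Aqp2, Aqp4, Aqp5, Aqp6 and Aqp11. They are not 5 separate regions, because Aqp2, Aqp5 and Aqp6 share their untreated-only peaks. Peaks matched 1 to 1 were wider after caerulein in 5 of 17 pairs and wider in untreated spheroids in 12, against 55.4% and 44.5% of all 27197 pairs. The post-caerulein peak was at least 2-fold wider in 0 pairs and the untreated peak in 2, both at Aqp4, against 2.82% and 2.05% of all pairs.

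**Figure D5:**
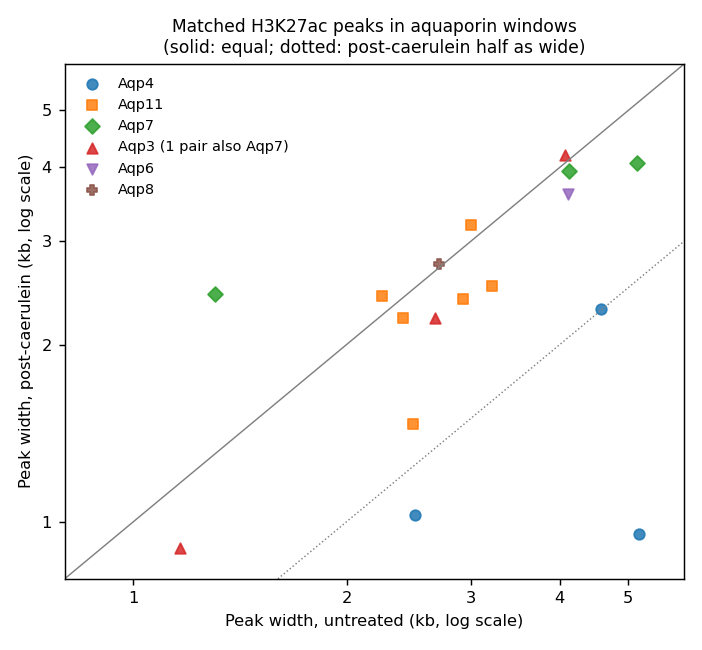
Widths of the 17 peaks matched 1 to 1 between the lists in aquaporin windows, untreated on the horizontal and post-caerulein on the vertical axis (kb, log scales), with symbols for genes. The solid line is equal width, and the dotted line is a 2-fold difference with the untreated peak the wider. The 3 Aqp4 pairs lie at or beyond the dotted line, and 1 Aqp11 pair lies between the 2 lines (log2 width ratio -0.76). On the other side of the solid line, 1 Aqp7 pair is the farthest from it (0.90).

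Genes with peaks most like those of Aqp5 and Aqp3 were taken by width alone. Among 431 other untreated-only peaks within 1 kb of a gene end (median 1605 bp), 0 were as wide as the Aqp5 peak and 4 as wide as the larger Aqp3 peak. Nearest in width to the Aqp5 peak were those at Ndufaf6, a complex I assembly factor (9.15 kb), the interferon-induced Ifitm3 (7.95 kb), BC030500 and Galntl6 (one peak of 6.35 kb) and the actin regulator gene Vasp (6.00 kb). Nearest to that of Aqp3 were those at the inflammasome sensor gene Nlrp6 (5.44 kb), the keratin gene Krt13 (5.38 kb), Vasp, the retinol dehydrogenase gene Rdh10 (5.02 kb) and the TFIIH subunit gene Gtf2h2 (4.96 kb).

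Genes that work with aquaporins were counted in the same way. Over all genes, 52.9% had a marked end in both lists and 43.9% in neither. Covered length was past the 2-fold limit on the higher side for 3.06% of genes with a peak in the window, and on the lower side for 2.97%. Of 16 genes of ductal fluid and bicarbonate secretion, 12 had a marked end in both lists and 4 in neither. Covered length was past the 2-fold limit for 1, Cftr, the chloride channel that starts ductal secretion, with 23.6 kb in post-caerulein against 54.5 kb in untreated spheroids (log2 ratio -1.17). The highest ratio was 0.70 at the secretin receptor gene Sctr, with 25.1 kb after caerulein against 15.0 kb untreated. The second on the lower side was the sodium-proton exchanger gene Slc9a3 (-0.27). The list's median log2 ratio was -0.05.

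Of 20 genes of aquaporin trafficking and regulation, 16 had a marked end in both lists and 3 in neither. An end of 1, the syntaxin gene Stx3, was marked after caerulein alone, as for 3.3% of all 12279 genes with a marked end. The post-caerulein peak at that end was a shared one, since every list-only peak around Stx3 was untreated. Covered length at Stx3 was lower after caerulein, with 6.64 kb against 7.25 kb untreated (-0.11). Among the 20 genes, only Dtna was past the 2-fold limit, with 1.73 kb in post-caerulein against 0 kb in untreated spheroids. Dtna is a dystrobrevin of the complex that anchors Aqp4 in the brain. The osmotic response factor gene Nfat5 had 26.9 kb in post-caerulein against 20.9 kb in untreated spheroids (0.35). On the lower side the largest were the dystrophin gene Dmd, with 2.03 kb after caerulein against 3.71 kb untreated (-0.64), and the osmosensitive channel gene Trpv4, with 19.2 kb after caerulein against 23.4 kb untreated (-0.27). Of 10 genes of glycerol handling 7 were marked in both lists, 3 in neither, and 0 were past the limit. The lipid droplet genes Plin2 (33.0 kb after caerulein against 43.4 kb untreated, -0.38) and Plin1 (4.79 kb after caerulein against 6.23 kb untreated, -0.32) had the lowest ratios, and Gpd1 (0.19) and the lipase gene Pnpla2 (0.18) the highest. The median log2 ratio was 0.04 in both of these lists.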

How the data were processed

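Peaks were called by the authors for each library, and each deposited list gives a chromosome, start, end, name and score per peak. Per the submitters' processing notes the tools were MACS 1.4, Bowtie2 2.2.6, Trimmomatic 0.38 and SAMtools, and the builds GRCm38 and mm10; caller options and control are not given in the sources used here. The score, which no header of the deposited lists defines, was used to rank and filter peaks within 1 list. The input library (1 of 3 samples) was not analysed here.

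Peaks overlapping by at least 1 bp were called shared, as checked with bedtools 2.31.1, and others list-only. Covered length, peaks and gene ends (within 1 kb) were computed for all 21887 RefSeq protein-coding genes with Python 3.11.15, numpy 2.4.6, pandas 2.3.3 and scipy 1.17.1. A ratio, or fold, of the deposited peaks' covered length had 1 kb added to each value. Strand and promoter sequences came from the RefSeq table of GRCm38.p6, which matched 9 of 10 members. Tested on simulated data, 100% of 200 genes emptied of peaks, out of 21887, were read as empty. The deletion fixes that outcome, so it checks the counting code and measures no detection rate.

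Members and lists were chosen with earlier results of these data known. Besides the members, genes were named where nearer to a list-only peak, by likeness in peak width, or by list-end marks and the 2 largest ratios of a list; genes under shared peaks in the windows were named after their values were seen. Gene body coverage, matched widths and counting overlapping windows once were also added after seeing the data. The value of 1 further gene named by the rule is not reported here.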

Additional observations from a re-analysis of the deposited data

How the results depend on the processing

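Of the 7 members past the 2-fold limit, 0 changed sign under the 7 other settings tried for covered length, but Aqp6 was at 0 with bases counted for their nearest gene, and Aqp9 was at 0 with a 10 kb window or the score limit. With a 10 kb window 1 member was higher (Aqp1, without Aqp9), list-only peaks numbered 3 after caerulein and 3 without treatment, and 2 pathway genes were higher. Without the peaks that scored below their list's median, 1 member was higher, 1 post-caerulein-only peak (at Aqp1) and 1 untreated-only peak (over Aqp5) were left, and members with list-only peaks of one list alone numbered 1 on the post-caerulein and 3 on the untreated side. Pathway genes past the limit on the higher side were then 0, as with a 100 kb window or a pseudocount of 2 kb, and 2 with bases counted for their nearest gene; on the lower side they were 2 with a 100 kb window. Counting overlapping windows once left 2 lower loci. At the start side alone 2 members were marked in untreated spheroids alone, and within 2.5 kb of an end 1 member (Aqp1) was marked after caerulein alone. Aqp3 was not past the limit with a 100 kb window (-0.67), a pseudocount of 2 kb (-0.97) or the score limit (-0.06). Under the score limit Aqp7 passed it instead (-1.02), so the count of 5 lower members stood with a different member. Unless stated, the cause was not tested. No paired analysis was possible because there is only 1 library for each condition. Unknown depth limits all list-only peaks with low scores.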

Other observations

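The 2 further mouse genes of the family fell outside the 10 described above. Aqp12, known for expression in pancreatic acinar cells, had no marked end in either list. Its window held no peak after caerulein and 1 of 1.97 kb in untreated spheroids. Mip, the water channel of lens fibres, had a marked end in both lists. Its covered lengths were 21.8 kb in post-caerulein and 21.6 kb in untreated spheroids. The nearest peak lay 5.36 kb from the Mip start site after caerulein and 5.32 kb in untreated spheroids.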
